A study of Mus musculus with 2 samples.

Results

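The genes Tomm20, Aff3, Gch1, Gsg1l, Dip2c, Nfia, Slc45a1 and Bag3 were each the nearest gene of 4 or 5 FOS peaks in mouse granulosa cells. These 8 genes were chosen from the number of peaks that the authors' annotation gave them, so that number describes how they were selected and carries no test. They accounted for 34 of the 2374 peaks and for 8 of the 1965 genes named as nearest to a peak. In all, 16 of the 1965 genes (0.814%) had 4 or more peaks. The other 8 were Tns1, with 5 peaks, and Fosl2, Nr5a2, Tgif1, Arhgap18, Txndc2, 1810053B23Rik and Gm20125, with 4 each. The last pair are noncoding genes, so 14 of 21887 protein-coding genes (0.064%) reached 4 peaks. At the threshold itself, 13 genes had exactly 4 peaks and 56 genes had 3.

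The cells came from the ovaries of wild-type female mice aged 25 days that had received PMSG, a gonadotropin that makes follicles grow, and then hCG, which acts through the luteinizing hormone receptor and sets off ovulation. Granulosa cells were taken 3 h after hCG by puncturing follicles, and their chromatin was immunoprecipitated with an antibody to FOS. The series has 2 libraries of the same genotype, treatment and time, and the second, whose label names no antibody, is not analysed here. There was 1 FOS library, the number of mice behind it is not given in the sources used here, and no untreated cells were compared, so no value carries an error between animals and nothing shows whether a peak depended on hCG. The depth is unknown. Of 12 granulosa marker genes 8 were nearest to a peak, as was 1 of 6 theca markers and none of 7 oocyte, 6 endothelial and 6 leukocyte markers, against 7.58% of all protein-coding genes. The best peaks of these 8 granulosa markers lay from 1.4 kb (Hsd17b1) to 724 kb (Inhba) from the start of the gene. That of the theca marker, Cyp17a1, lay 29.8 kb away, in an intron of Wbp1l. A peak assigned to a marker is not its expression, so the purity of the cells could not be checked.

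FOS is made within minutes of a signal and pairs with JUN proteins to form AP-1, which binds the sequence TGACTCA or TGAGTCA, often at enhancers far from promoters. An enhancer is a stretch of regulatory DNA that can act on a gene from a distance, and a gene may have several. The luteinizing hormone signal turns granulosa cells towards ovulation and progesterone production, which takes place partly in mitochondria. The 8 genes belong to no single pathway. Tomm20 encodes a receptor of the outer mitochondrial membrane that recognises proteins bound for import. Gch1 encodes GTP cyclohydrolase, the enzyme that starts the synthesis of tetrahydrobiopterin, the cofactor of nitric oxide synthases. Bag3 encodes a partner of HSP70 chaperones that is induced by heat and protein damage and directs misfolded proteins to autophagy. Nfia is a transcription factor of the nuclear factor I family, and Aff3 a nuclear protein related to the scaffolds of transcription elongation complexes. Slc45a1 is a sugar transporter, Gsg1l an auxiliary subunit of AMPA-type glutamate receptors, and Dip2c a conserved protein of the DIP2 family.

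At 2 of the 8 genes a FOS peak lay on the promoter, and the sequence is shown for these and for Bag3, whose promoter holds an AP-1 sequence but no deposited peak. Each line gives the 250 bases before the TSS (transcription start site), 5′ to 3′ on the gene's own strand, from RefSeq (GRCm38.p6, the assembly that mm10 names). Capitals mark TGANTCA, the AP-1 sequence with any middle base, and TGACGCA, which was picked out after the sequences had been seen. The Tomm20 stretch is chr8:126945922-126946171 on the minus strand, that of Gch1 is chr14:47189414-47189663 on the minus strand, and that of Bag3 is chr7:128523333-128523582 on the plus strand.
Tomm20: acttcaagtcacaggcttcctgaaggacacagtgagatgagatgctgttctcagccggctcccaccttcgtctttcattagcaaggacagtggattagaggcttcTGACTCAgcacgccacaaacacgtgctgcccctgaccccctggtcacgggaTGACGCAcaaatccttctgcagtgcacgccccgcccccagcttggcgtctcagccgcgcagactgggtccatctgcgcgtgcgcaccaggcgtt
Gch1: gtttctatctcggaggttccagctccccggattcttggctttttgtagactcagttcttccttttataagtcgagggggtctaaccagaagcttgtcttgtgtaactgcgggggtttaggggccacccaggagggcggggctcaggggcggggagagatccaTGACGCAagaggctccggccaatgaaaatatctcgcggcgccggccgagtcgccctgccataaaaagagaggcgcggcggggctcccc
Bag3: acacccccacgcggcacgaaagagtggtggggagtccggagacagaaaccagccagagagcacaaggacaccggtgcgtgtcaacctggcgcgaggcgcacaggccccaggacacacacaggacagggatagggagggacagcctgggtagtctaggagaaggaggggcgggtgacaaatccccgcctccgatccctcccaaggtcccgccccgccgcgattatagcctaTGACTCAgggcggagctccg

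The promoter peak of Tomm20 covered all 250 of these bases, and TGACTCA started 145 bases before the TSS, with its middle 6 bp from the peak centre. In the same stretch TGACGCA started 94 bases before the TSS, 45 bp from the peak centre. The AP-1 sequence of Tomm20 is followed by GC, which also makes it a match to TGANNNNGC, a loose form of the antioxidant response element core. That loose pattern was also picked out after the sequences had been seen. It is common, with a match in 41.3% of promoter windows and, besides Tomm20, in those of Aff3, Nfia and Dip2c. The promoter peak of Gch1 covered 71 of the 250 bases and reached into the gene. No TGANTCA was found in the Gch1 window, and its TGACGCA, 88 bases before the TSS, lay just outside the deposited peak. In Bag3, TGACTCA started 20 bases before the TSS, while the nearest peak centre was 6345 bp into the gene. Windows were matched by symbol for 6 of the 8 genes, for Nfia at another TSS than the one behind its peak distances. Each window had 300 bases, 250 before and 50 after the TSS. Among all 32851 windows of that length, searched on both strands, 7.81% held TGANTCA and 2.12% held TGACGCA. Of the 6 genes, Tomm20 and Bag3 held TGANTCA and Tomm20 and Gch1 held TGACGCA, while Aff3, Nfia and Dip2c held neither. TGACGTCA, the cAMP response element, was in 1.79% of windows and in none of the 6. GAANNTTC, which resembles the heat shock element, was in 7.86% of windows and, among the 6, in that of Bag3 alone, where it starts 42 bases after the TSS. The E-box CANNTG, present in 72.3% of windows, was found in those of Nfia, Tomm20 and Dip2c. These are matches of letters and not measured binding sites.

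Tomm20 had 5 peaks and the highest score of the 8 genes. The score is the authors' whole number for each peak, which ranks peaks within this list, and over all 2374 peaks its median was 67. The gene covers 15.3 kb (chromosome 8, 126930664 to 126945921), and no peak centre fell inside it. The promoter peak, 136 bp upstream of the TSS, scored 127. The other 4 lay beyond the 3′ end of the gene, 26.5, 63.9, 96.2 and 122 kb downstream of the TSS, and scored 187, 223, 64 and 33. Scores thus rose from the promoter to the peak 63.9 kb away (chromosome 8, 126881716 to 126882288), which ranked 65th in the whole list, and then fell. The authors' annotation calls these 4 peaks intergenic, while in RefSeq the centres of the outer 3 lie within the noncoding gene Gm31718. Spacing was even, with 25.8 to 37.4 kb between neighbouring centres. The next peak on that side, 56.3 kb further on with a score of 112, was assigned to Irf2bp2.

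Gch1 had 4 peaks, 1 at the promoter and 3 in intron 1 (chromosome 14, 47153895 to 47189413, 35.5 kb). The promoter peak, centred 54 bp inside the gene, scored 35. Within intron 1 of 5, which reaches far into the gene, followed peaks of score 44 at 11.4 kb, 37 at 18.7 kb and 175 at 19.2 kb from the TSS. One strong peak therefore stood beside 3 that were all below the median of the list. The strongest (chromosome 14, 47170020 to 47170428) ranked 143rd, and its weaker neighbour began 118 bp beyond its edge. The centre of the peak at 11.4 kb lies within the pseudogene Gm18811 of RefSeq.

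Slc45a1 was the only one of the 8 genes whose intronic peaks all lay in another gene. The gene covers 22.8 kb (chromosome 4, 150629396 to 150652176), and its 4 peaks lay between 48.4 and 100.2 kb from the TSS. Downstream, peaks of score 106 at 48.4 kb and 62 at 75.7 kb were inside intron 12 of 22 of Rere, which encodes a nuclear corepressor of the atrophin family. Upstream, intergenic peaks of score 74 and 92 lay 96.1 and 100.2 kb away. Counted for the gene that holds them, the downstream peaks belong to Rere, and Slc45a1 kept 2. The next upstream peak, 47.4 kb beyond with a score of 188, was assigned to the noncoding gene 1700045H11Rik. Within 50 kb of the gene span there was 1 peak.

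Bag3 had most of its peaks close together. Of its 4 peaks, 3 lay in intron 1 of 3, at 6.3, 7.7 and 8.5 kb from the TSS, with scores of 64, 43 and 87. The fourth, of score 74, was intergenic, 31.2 kb from the TSS and past the 3′ end of the gene (chromosome 7, 128523583 to 128546981, 23.4 kb). The 3 intronic centres were 1.3 kb and 0.9 kb apart, and the intergenic peak stood 22.6 kb from them. The best peak (chromosome 7, 128531980 to 128532257) ranked 777th, the lowest rank of a best peak among the 8 genes. Its scores also differed little, with a ratio of 2.02 from highest to lowest.

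The transcription regulators Nfia and Aff3 held all their peaks in their own introns. Aff3 (chromosome 1, 38175393 to 38630178, 454.8 kb) had 5 peaks, of score 48 in intron 1 of 21, 43 and 122 in intron 4, and 62 and 126 in intron 5. They lay 78.3, 156.9, 189.3, 221 and 223.2 kb from the TSS, none of them past 49.7% of the gene's length from its 5′ end and none nearer to the TSS than 78.3 kb. The best (chromosome 1, 38403775 to 38404287) was, by the TSS of the authors' annotation, the farthest of all 34 peaks. Nfia (chromosome 4, 97578066 to 98118876, 540.8 kb) had peaks of score 114 and 40 in intron 1 of 10 and 51 and 48 in intron 2. The authors' annotation places the first pair 74.9 and 20.2 kb upstream of a TSS and the second 149.4 and 172.8 kb downstream of it. That TSS lies 199.6 kb inside the RefSeq gene, and measured from the outer 5′ end of the gene the 4 peaks were 124.7, 179.4, 349 and 372.3 kb downstream. Whether a peak of Nfia counts as upstream thus depended on the start site used. Only the peak of score 114 (chromosome 4, 97702585 to 97702936) was above the median of the list.

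Dip2c and Gsg1l, both long genes, had peaks on both sides of their TSS. Dip2c (chromosome 13, 9276507 to 9668928, 392.4 kb) had intergenic peaks of score 150 and 49 at 85.1 and 36.7 kb upstream. Within intron 1 of 36 it had peaks of score 122 and 99 at 77.5 and 114.1 kb downstream. The best (chromosome 13, 9191273 to 9191626) was the one farthest upstream, and 3 of the 4 peaks were above the median of the list. Gsg1l (chromosome 7, 125878412 to 126082757, 204.3 kb) had an intergenic peak of score 52 at 17 kb upstream, which lies within the RefSeq noncoding gene Gm30807. A peak of score 55 lay in intron 1 of 6, 5.3 kb from the TSS. Peaks of score 34 and 163 lay in intron 5, 182.3 and 183.2 kb from the TSS. The pair in intron 5 stood 177.1 kb from the others, the widest gap among the 8 genes, and its stronger peak (chromosome 7, 125898980 to 125899351) ranked 177th.

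**Figure D1:**
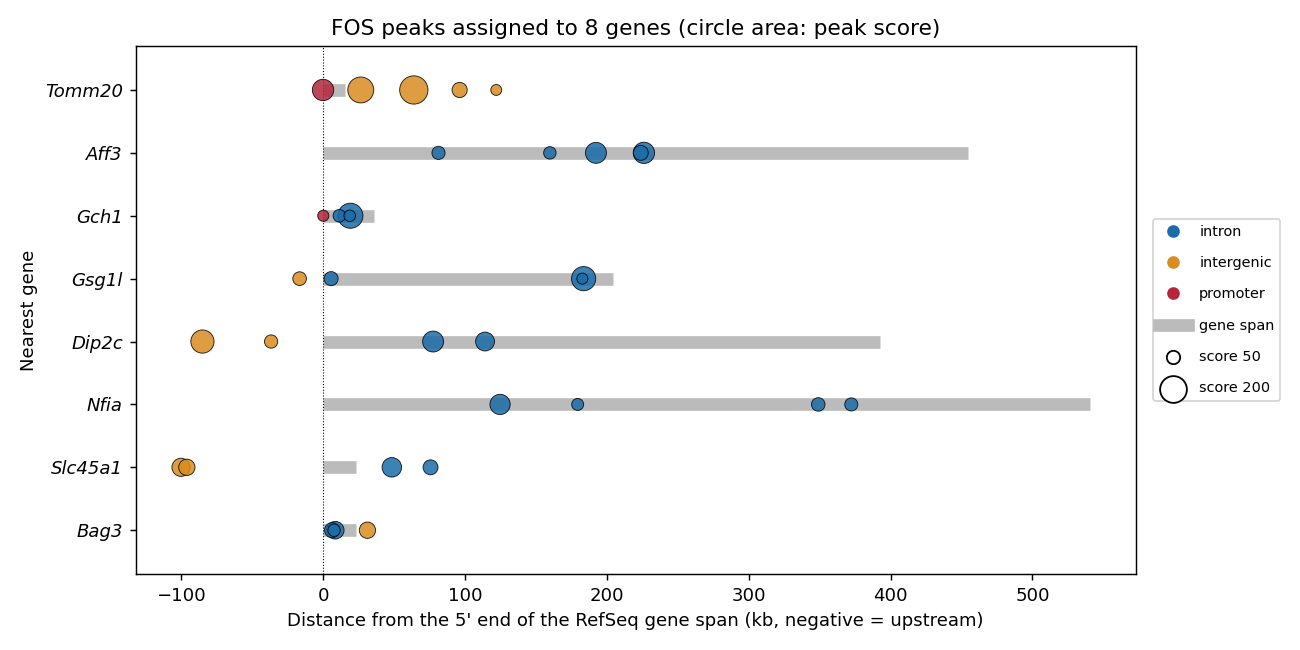
Position of each of the 34 FOS peaks in kb from the 5′ end of its nearest gene's RefSeq span, with the gene drawn as a grey bar, circle area showing the peak score and colour the authors' class. All peaks of Aff3 and Nfia lie within long genes, those of Gch1 and Bag3 lie no more than 31.2 kb from the 5′ end, and those of Slc45a1 and Tomm20 are centred outside the gene.

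Most of the 34 peaks were intronic, and at neither Tomm20 nor Gch1 was the promoter peak the strongest. There were 22 intronic peaks (64.7%), 12 in intron 1 and 10 in later introns, along with 10 intergenic (29.4%) and 2 promoter peaks (5.88%). Over all peaks of the list these shares were 44.7%, 35.4% and 15.2%. Genes with 3 peaks had 50% intronic and 2.98% promoter peaks, and genes with 1 peak had 42.4% and 18.9%. The other 8 genes with 4 or more peaks had 51.5% intronic and 6.06% promoter peaks. Because the genes were chosen by their number of peaks, these shares are given without a test. By position, 21 centres fell within the RefSeq span of the assigned gene and 13 outside. All peaks of Aff3, Gch1 and Nfia were within the gene, and none of Tomm20 or Slc45a1. The median distance to the TSS was 75.3 kb, and for the other 8 genes with 4 or more peaks it was 87.4 kb. It was 42.2 kb for genes with 3 peaks, 28.5 kb for genes with 2 and 13.9 kb for genes with 1. Of the other genes with 4 peaks, Fosl2, encoding a FOS relative, had 1 promoter and 3 intronic peaks, and Nr5a2, a nuclear receptor of granulosa cells, had 1 intronic and 3 intergenic peaks.

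Peaks of these genes scored in the range of the rest of the list. The 34 scores ran from 33 to 223 with a median of 64, and 16 (47.1%) were at or above the median of the list, as were 51% of all peaks. Genes with 3, 2 and 1 peaks had medians of 68.5, 69 and 67. Of the 34 peaks, 4 (11.8%) ranked 237th or higher, close to the 10.1% of all peaks that did, ties included. These 4 were a pair at Tomm20 and the best peaks of Gch1 and Gsg1l. Peaks of a gene differed among themselves: the ratio of highest to lowest score was 6.76 for Tomm20, 5 for Gch1, 4.79 for Gsg1l, 3.06 for Dip2c, 2.93 for Aff3, 2.85 for Nfia, 2.02 for Bag3 and 1.71 for Slc45a1. The best peak was intronic in 6 genes and intergenic in Tomm20 and Dip2c. With only peaks at or above the median score, none of the 8 genes had 4 peaks, and Tomm20, Dip2c and Slc45a1 kept 3 each. At that setting 1810053B23Rik was the only gene of the whole list with 4. Each of the 8 genes thus reached 4 peaks through at least 1 peak below the median. Peak widths, 268 to 573 bp with a median of 331 bp, were like those of all peaks, whose median was 342 bp.

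**Figure D2:**
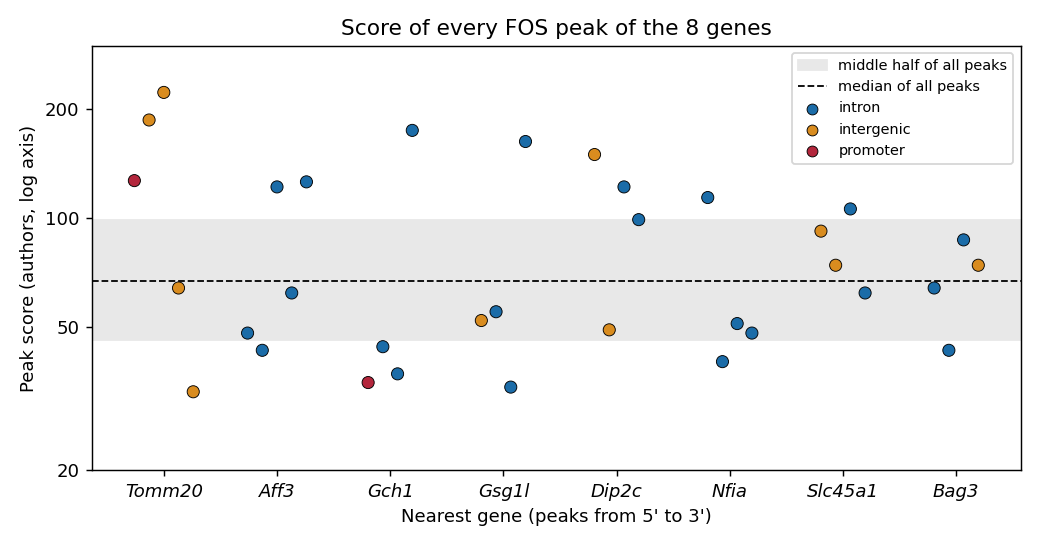
Score of each peak (log axis), ordered from 5′ to 3′ within each gene and coloured by class, with the median of all 2374 peaks at 67 (dashed) and their middle 50% from 46 to 99 (grey). Each gene has at least 1 peak below the median, and every gene but Bag3 has a peak above 99.

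The peaks of the 8 genes reached over very different distances. From the outermost centre on one side to that on the other, the peaks reached over 19.1 kb at Gch1 and 24.8 kb at Bag3. The reach was 122.1 kb at Tomm20, 144.9 kb at Aff3, 175.9 kb at Slc45a1, 199.2 kb at Dip2c, 200.2 kb at Gsg1l and 247.7 kb at Nfia. The 26 gaps between neighbouring centres had a median of 26.9 kb, and 7 of them (26.9%) were 10 kb or less. Over all genes with more than 1 peak, the 409 gaps had a median of 27.5 kb and 28.9% were 10 kb or less, values that lie close to those of the 8 genes. Joined where centres lay within 10 kb, the 34 peaks formed 27 clusters, of which 5 held more than 1 peak: at Aff3, Gch1, Gsg1l, Slc45a1 and Bag3. The smallest gap was 25.8 kb at Tomm20, 36.6 kb at Dip2c and 23.4 kb at Nfia, so their peaks stood singly. A gap of 1 kb or less occurred once each in Gch1, Gsg1l and Bag3, between peaks of score 175 and 37, 163 and 34, and 87 and 43. The whole list held 21 such pairs, these 3 included. In them the higher score was a median of 1.73 times the lower (quartiles 1.39 and 3.08). In Gch1 and Gsg1l the ratios were 4.73 and 4.79, and in Bag3 the ratio was 2.02. Of the 21 pairs, 2 were at or above the ratio of Gsg1l, with the Gsg1l pair itself counted. Counting such pairs once left Gch1, Gsg1l and Bag3 with 3 peaks each.

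**Figure D3:**
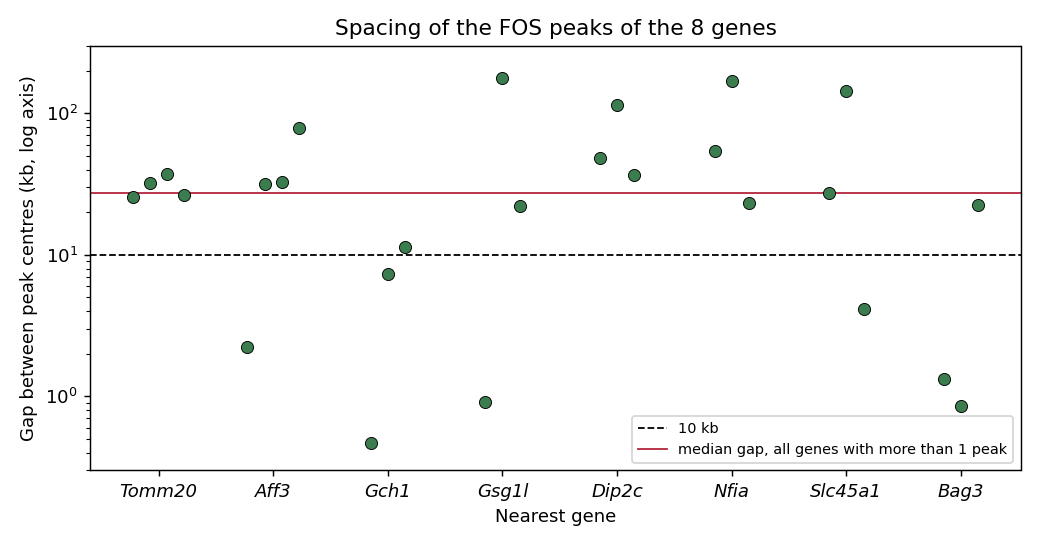
Gap between neighbouring peak centres in kb (log axis), in chromosome order within each gene, with the median gap of all genes with more than 1 peak at 27.5 kb (red) and the 10 kb limit of a cluster (dashed). The gaps of Tomm20 lie close together between 25.8 and 37.4 kb, while those of Gsg1l run from 0.9 to 177.1 kb.

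Some of the 8 genes were among the longest of the genome and others were not. The spans of Nfia, Aff3, Dip2c and Gsg1l exceeded those of 99.1%, 98.7%, 98.3% and 95.6% of protein-coding genes. Gch1, Bag3, Slc45a1 and Tomm20 exceeded 69.9%, 58.4%, 57.7% and 46.6%, so 4 of the 8 were not among the long genes. The median span was 119.9 kb, against 34.3 kb for protein-coding genes with 1 peak, 61.2 kb with 2, 84.8 kb with 3 and 17.2 kb for all protein-coding genes. The other 6 protein-coding genes with 4 or more peaks had a median span of 69.6 kb, so the median did not rise steadily with the number of peaks. The stretch between the nearest protein-coding neighbours that do not overlap the gene was 1568.5 kb for Nfia, 663.7 kb for Aff3, 510.4 kb for Dip2c and 353.2 kb for Tomm20. It was 231.8 kb for Slc45a1, 226.9 kb for Gsg1l, 149.5 kb for Bag3 and 135.1 kb for Gch1, with a median of 77.8 kb over all protein-coding genes. The median of the 8 genes, 292.5 kb, lay above the 218.2 kb of genes with 2 peaks and below the 404.7 kb of genes with 3 and the 371.2 kb of the other genes with 4 or more. Per 100 kb of this stretch, with all assigned peaks counted, Gch1 had 2.96 peaks and Bag3 2.68, Gsg1l 1.76, Slc45a1 1.73 and Tomm20 1.42. Dip2c had 0.78, Aff3 0.75 and Nfia 0.26. Since the rule gave every gene 4 or 5 peaks, this order only repeats that of the stretches, from shortest to longest. The count was not limited to peaks within the stretch, and for Slc45a1 it included those inside Rere, another protein-coding gene. A gene with a longer stretch is the nearest gene of more positions, and the part of this in the number of peaks was not tested. Within 100 kb of the TSS alone, Tomm20, Gch1 and Bag3 kept 4 peaks, as did Txndc2 and no other gene of the list.

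**Figure D4:**
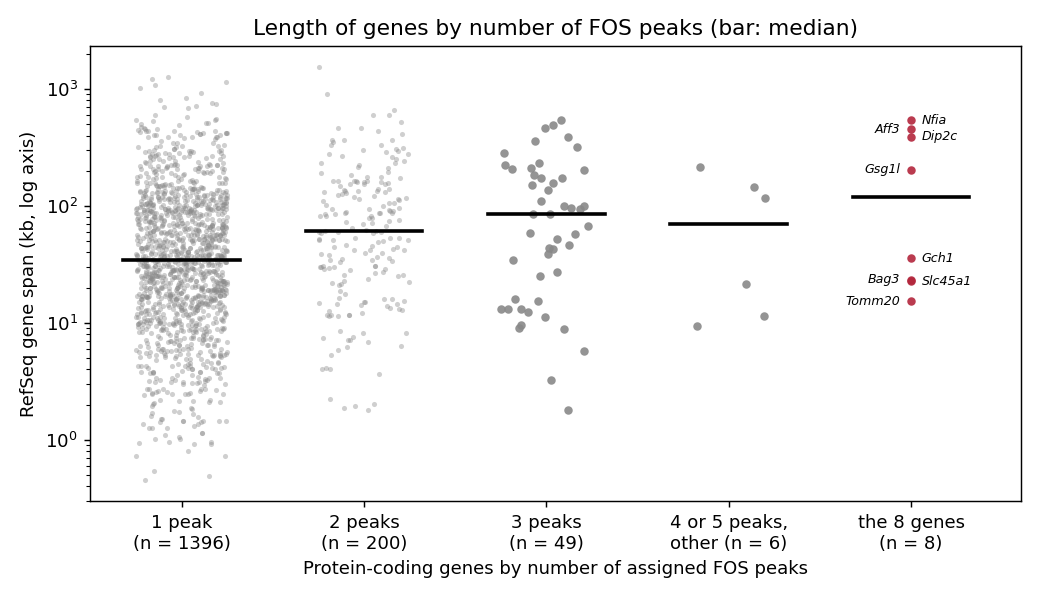
RefSeq gene span in kb (log axis) of protein-coding genes grouped by the number of FOS peaks assigned to them, 1 point per gene, with the bar at the group median. The 8 genes are named and range from 15.3 kb for Tomm20 to 540.8 kb for Nfia.

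Relatives and pathway partners of 7 of the 8 genes, all but Gch1, had at most 1 peak each. Having at most 1 peak was the rule in the whole list too: of 1658 protein-coding genes nearest to a peak, 1396 had only 1. Of the 63 relatives and partners, 9 (14.3%) were nearest to a peak, against 7.58% of all protein-coding genes. None of the other NFI, DIP2, GSG1 and BAG family genes had a peak, at 3, 2, 2 and 5 genes. Among the AFF family and the elongation complex, 3 of 13 further genes had one, at Aff1 (score 197, in intron 1), Ell, which encodes an elongation factor (92), and Aff2 (58). Slc45a3 was the only one of 3 further SLC45 genes with a peak (46). Of 20 chaperones and partners of BAG3, 4 had a peak. They were Dnajb6, an HSP40 cochaperone with a promoter peak of score 120, Ywhag, a 14-3-3 protein (91), Hsph1, an HSP110 chaperone (86), and Sqstm1, the autophagy receptor p62 (33). Of 15 further genes of outer membrane import and its channels, Vdac1, which encodes the main anion channel of that membrane, alone had a peak (136, 20 kb upstream). The lists are small, and their shares were not tested.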

How the data were processed

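The FOS library was deposited as a single list of peaks annotated with the annotatePeaks program of HOMER, per the file headers. The submitters' processing notes name mm10, MACS2 2.2.7.1, BWA, Trim Galore and deepTools 3.5.1. Which threshold and which control the peaks were called with is not stated in these sources. The peak score is the authors' score, of unstated scale, and served only to rank peaks within this list. Without read counts the depth is unknown.

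Peaks were taken by their nearest gene. Positions are as deposited, and a peak centre is the middle of its start and end. All 1965 gene names were matched to RefSeq (GRCm38.p6) by accession, symbol or older symbol. With 1 library and genes chosen by their number of peaks, no test was made. The members, lists and rules were chosen with earlier results of these data known. All peaks and host genes of the 8 genes are named, with the other genes that have 4 or more peaks and up to 4 covered genes per list. Gm31718, Gm18811, Gm30807, Irf2bp2 and 1700045H11Rik were added after their values were seen. The list of Gch1 partners is not reported here. No genome sequence was used, so motifs were searched in promoters only. The cluster and motif searches were tested on simulated data. Python 3.11.15, numpy 2.4.6, pandas 2.3.3 and matplotlib 3.10.9 were used.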

Additional observations from a re-analysis of the deposited data

How the results depend on the processing

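The number of genes reaching 4 peaks depended on how peaks were counted. With only peaks at or above the median score, the 8 genes had 16 peaks in place of 34, 0 of them had 4 or more, and 1 gene of the whole list did, in place of 16. Within 100 kb of the TSS the 8 genes had 23 peaks, 3 of them had 4 or more, and 4 genes of the whole list did. With peaks within 1 kb counted once, 5 of the 8 had 4 or more, and 12 genes of the list did. By host gene 7 of the 8 did, all but Slc45a1, and 18 genes of the list did. With any peak within 50 kb of the gene span, an alternative added after seeing the data, 5 of the 8 did, all but Tomm20, Dip2c and Slc45a1, as did 33 of 21887 protein-coding genes (0.151%). These changes follow from how each alternative counts, since it drops, joins or reassigns peaks. The 50 kb alternative can also count 1 peak for several genes. By nearest gene, 14 protein-coding genes (0.064%) had 4 or more peaks. The 34 peaks formed 28 clusters with a gap of 5 kb and 26 with 20 kb, and the number of promoter peaks was 2 under both definitions. The 16 peaks at or above the median stayed 16 with medians taken apart for promoter and other peaks. No paired analysis was possible because 1 library has a file. Leaving out a replicate was not possible for the same reason. The unknown depth limits what the list can show: a site without a deposited peak may still be bound.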
